A study of Homo sapiens with 17 samples.

Results

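The mitochondrial ribosomal protein genes are the protein-coding genes whose symbol is MRPL, for the large subunit, or MRPS, for the small subunit, followed by a digit. There were 78 of them in the annotation, 49 MRPL and 29 MRPS genes, and counts were found for 15660 genes in all at 36 h and for 17023 at 72 h. Of these, 77 reached the minimum for testing at 36 h, a mean of 20 counts in the footprint and in the mRNA libraries, and all 78 reached it at 72 h. MRPL33 was the member left out at 36 h.

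The cells were HEK293, an established human embryonic kidney line. They were electroporated with a ribonucleoprotein (RNP) of a guide RNA against an intron of JAK2 and either Cas9, which cuts the DNA, or dCas9, the catalytically inactive form that served as the control. Cells were lysed at 36 or 72 h, and both ribosome footprints (the mRNA fragments shielded by ribosomes, which report translation) and rRNA-depleted total RNA (mRNA-seq) were sequenced. This gave 17 libraries, with 2 in every group of nuclease, time and library type except the Cas9 mRNA group at 36 h, which had 3. Per the study's methods a replicate was a plate of pooled electroporations, and the guides were synthetic at 36 h and transcribed in vitro at 72 h, so time and guide preparation cannot be told apart.

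The mitochondrial ribosome is the machine that translates the few messages of mitochondrial DNA, all of which encode subunits of the respiratory chain and ATP synthase. Its rRNAs come from the mitochondrial genome, whereas all of its proteins are encoded in the nucleus, translated by cytosolic ribosomes and imported. Footprints on MRPL and MRPS mRNAs therefore report the work of the cytosolic ribosome. By the lists used here, 45 members have a bacterial counterpart and 33 are specific to mitochondria. The members lie on 21 chromosomes, with 8 each on chromosomes 1, 2 and 17.

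The libraries held 689636 to 4868580 footprint counts at 36 h, 3183558 to 8864461 footprint counts at 72 h, and 25095505 to 42825659 mRNA counts. The members took 0.548% to 0.712% of the counts in each library, which was 4911 counts in the shallowest footprint library (dCas9 e at 36 h). Of the HEK293 markers, LIN28B (43.1 to 65.4 CPM, the counts scaled to a common library total) and VIM (599 to 1069 CPM) were present in every mRNA library, NES was low (1.87 to 4.78 CPM) and PAX2 was at most 0.320 CPM. The 9 markers of K562, blood and liver cells were each at most 0.769 CPM. JAK2 mRNA overlapped between the nucleases, at 4.34 to 8.30 CPM at 36 h and 6.71 to 11.1 CPM at 72 h.

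The members were among the more abundant and more heavily translated messages of these cells. Levels of different genes were compared per length, as a density in CPM per 1000 counted codons, with footprint and mRNA libraries scaled together. In dCas9 cells the median mRNA density of the members was 384 at 36 h and 311 at 72 h, and the median member stood above 86.1% and 87.0% of the tested genes. The median footprint density was 417 at 36 h and 336 at 72 h, above 85.5% and 86.1% of the tested genes. The members' coding regions were short, with a median of 177 counted codons at 36 h against 455 over all tested genes.

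The levels differed widely within the complex. MRPL51 had the highest mRNA density of the members, at 1437 and 1638 in the 2 dCas9 libraries at 36 h and 1080 and 1014 at 72 h. It was followed at 36 h by MRPS21 (mean 1352) and MRPL12 (mean 1316), and at 72 h by MRPS21 (1034) and MRPL20 (1026). At 36 h both MRPL51 libraries lay above those of MRPS21 (1294 and 1410) and MRPL12 (1295 and 1338), which overlapped each other, whereas at 72 h the libraries of all 3 leading genes overlapped. MRPL1 (89.3 at 36 h and 97.9 at 72 h) and MRPS31 (106 and 79.0) were the lowest, with MRPL44 next at 139 and 126.

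In footprints MRPL41, a large-subunit protein with no bacterial counterpart, led at both times. Its footprint density was 2505 and 3523 in dCas9 cells at 36 h, and 1456 and 1546 at 72 h. MRPS21 (mean 1579) and MRPL36 (1458) followed at 36 h, and MRPL12 (1123) and MRPS2 (1111) at 72 h. The lowest footprint densities were those of MRPL1 (70.4), MRPS31 (100.2) and MRPL35 (116) at 36 h, and of MRPS31 (88.3), MRPL1 (94.3) and MRPS5 (126) at 72 h. MRPL1 and MRPL35 each had only 7 counts in the shallowest footprint library, so their 36 h values were loosely fixed.

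Across the members, mRNA and footprint density went together (Pearson's r = 0.82 over 77 genes at 36 h and 0.80 over 78 at 72 h). The order of the members also carried over between the times, with r = 0.93 for mRNA and 0.92 for footprints. These correlations are across genes that share libraries and gene lengths, and are given as a description only.

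**Figure D1:**
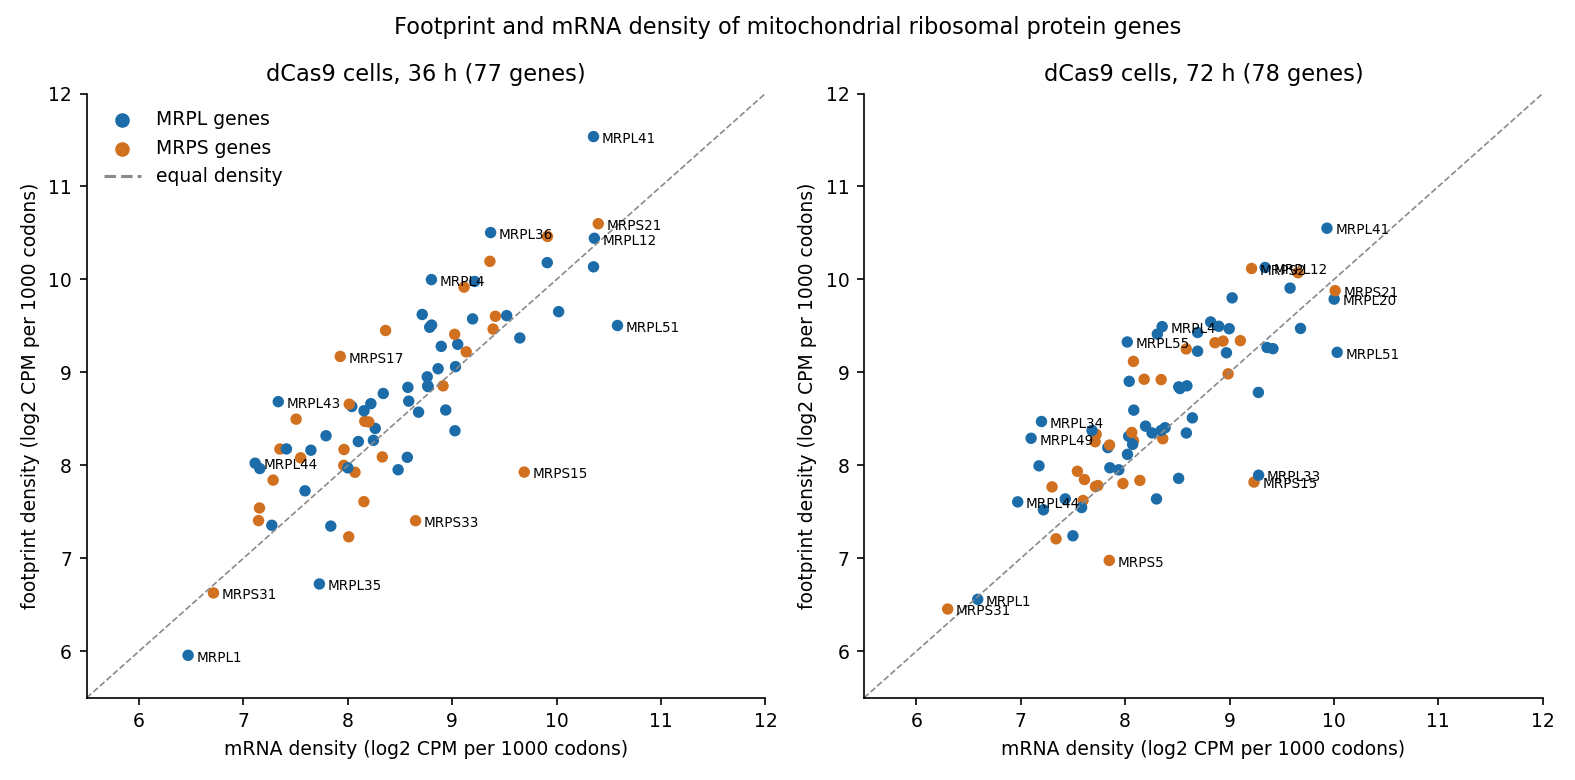
Footprint density against mRNA density in dCas9 cells at 36 h (left) and 72 h (right), both in log2 CPM per 1000 counted codons, with a point for each member by subunit. The dashed line marks equal density; MRPL41 is highest on the footprint axis in both panels, and MRPS15 and MRPL51 lie below the line.

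The median member carried more footprints for its mRNA level than the median gene. In dCas9 cells at 36 h, 24 of 77 members had more footprints than mRNA relative to the other genes and 7 had fewer (false discovery rate 0.1). Over all tested genes 48.2% were called in the same contrast, 23.6% higher and 24.6% lower. Without dCas9 mRNA library e the 31 members called became 18, 16 higher and 2 lower, and 2994 genes were called in all, against 4344. At 72 h, 38 of 78 members were higher and 11 lower, against 32.7% and 37.8% of all genes (70.6% called). The median log2 ratio of footprints to mRNA was 0.18 for members and -0.01 for all genes at 36 h, and 0.25 against -0.06 at 72 h. For the cytosolic ribosomal proteins, the subunits of the ribosome that does this translation, the median was -0.79 at 36 h (8 higher and 56 lower of 80 tested) and -0.77 at 72 h (11 higher and 57 lower of 82).

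MRPS15, a small-subunit protein with a bacterial counterpart, had the lowest ratio of the members at both times. Its mRNA stood at 191 and 221 CPM in the dCas9 libraries at 36 h, while its footprints stood at 46.6 and 63.1 CPM. At 72 h the mRNA was 158 and 144 CPM and the footprints 52.9 and 49.3 CPM. The fitted log2 ratio was -1.85 (SE 0.19, adjusted P = 2.23e-06) at 36 h and -1.42 (SE 0.12, adjusted P = 2.66e-08) at 72 h by edgeR's quasi-likelihood test.

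MRPL51, the most abundant member by mRNA density, also had a low ratio at both times, with a fitted log2 value of -1.05 (SE 0.16) at 36 h and -0.82 (SE 0.11) at 72 h, both past the threshold. MRPL33 was low at 72 h (-1.42, SE 0.26), on 51 and 71 footprint counts in the dCas9 libraries. MRPS5 was low at 72 h (-0.87, SE 0.12) and at 36 h (-0.60, SE 0.20), past the threshold at both. MRPS33 and MRPL35 ranked among the lowest 4 at 36 h but did not pass the test (adjusted P = 0.113 and 0.121). Their values in the 2 dCas9 libraries lay far apart, and the part of this in the result was not tested. The log2 ratio of MRPS33 was -0.35 in dCas9 library d and -2.14 in dCas9 library e, where it had 5 footprint counts.

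At the other end, MRPL4 stood among the highest 4 at both times, with a fitted log2 ratio of 1.18 (SE 0.21) at 36 h and 1.14 (SE 0.11) at 72 h. Its footprints were 211 and 344 CPM against mRNA of 122 and 141 CPM in dCas9 cells at 36 h. MRPL43 (1.31), MRPL41 (1.17) and MRPS17 were the others at 36 h. At 72 h they were MRPL55 (1.31), MRPL34 (1.27) and MRPL49 (1.19). All of these passed the test at both times, and the 72 h value was 0.61 for MRPL41 and 0.61 for MRPS17.

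The order of the members by ratio was similar in both experiments. The mean log2 ratios in dCas9 cells at 36 and 72 h went together over 77 members (r = 0.77, Spearman's rho = 0.74). The members differed less among themselves than genes at large, with an SD of the log2 ratio of 0.53 to 0.77 across members in each footprint library, against 0.94 to 1.61 over all tested genes. The members also stood at higher levels than most genes, and the part of level in this spread was not tested.

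**Figure D2:**
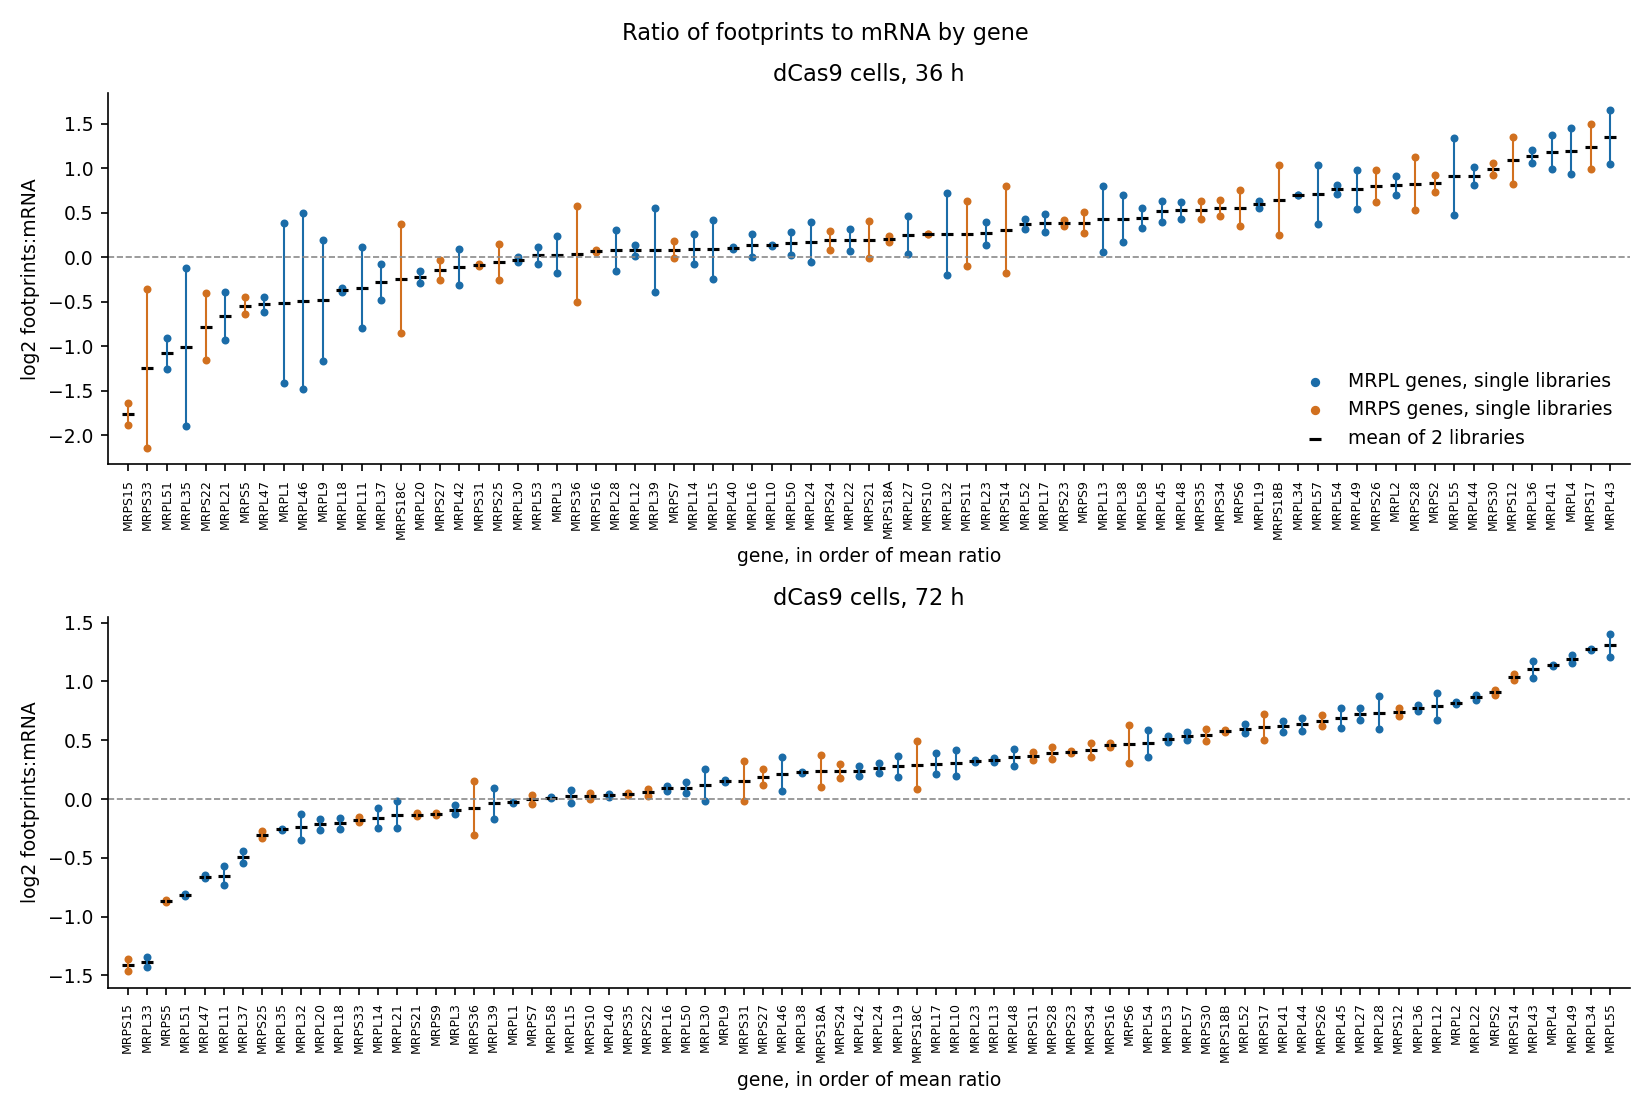
Log2 ratio of footprints to mRNA in dCas9 cells for every tested member, ordered by its mean, at 36 h and 72 h; points are the 2 footprint libraries joined by a line, dashes are their means and colours give the subunit. MRPS15 is at the low end in both panels. The 2 libraries lie farther apart at 36 h than at 72 h for many members, such as MRPS33 and MRPL35. At 36 h each footprint library was set against the mRNA library of the same letter. At 72 h both were set against the mean of the 2 mRNA libraries, so only the 36 h spread includes that between mRNA libraries.

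Large and small subunit genes were compared in every library. The median MRPL density lay above the median MRPS density in all 17 libraries, by 0.16 to 0.42 in the footprint libraries and by 0.20 to 0.59 in the mRNA libraries on the log2 scale. Ribosomes hold the subunits in equal number, and these are levels of message and of its translation, not of protein. In the ratio the MRPL minus MRPS difference ranged from -0.17 to 0.07 over the 8 footprint libraries and took both signs. It was -0.08 in Cas9 and -0.06 in dCas9 cells at 36 h, and 0.06 in Cas9 and -0.04 in dCas9 cells at 72 h (means of the 2 libraries).

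Some symbols do not match the subunit in which the protein sits. MRPS30 and MRPS18A belong to the large subunit in the solved structures, and MRPS36 is no longer counted as a ribosomal protein. Grouped by structure, with 51 large-subunit and 26 small-subunit genes, the median density of the large subunit was again above that of the small subunit in all 17 libraries, by 0.10 to 0.45. Members with a bacterial counterpart had a higher median density than the mitochondria-specific members in all 17 libraries as well, by 0.04 to 0.63.

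The first comparison was Cas9 against dCas9 at 36 h. No member passed the threshold in footprints, mRNA or translational efficiency (the Cas9 effect on footprints minus that on mRNA), where 0%, 0.0222% and 0% of all tested genes did. At an unadjusted P under 0.05 there were 2 members in footprints, 1 in mRNA and 4 in translational efficiency, against 188, 422 and 568 genes. These shares and counts are edgeR's. DESeq2 also called 0 members in each, but its calls over all genes are not given here. The median log2 fold change of the members was 0.01 in footprints, -0.05 in mRNA and 0.05 in translational efficiency. In mRNA 28 of 77 members lay above 0, against 50.5% of all genes.

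MRPS5, a small-subunit protein with a bacterial counterpart, did not pass the test at 36 h. It had the smallest P among members lower in Cas9 cells, in footprints and in translational efficiency. Its footprints were 27.9 and 41.97 CPM in Cas9 cells and 67.4 and 84.2 CPM in dCas9 cells, so the groups did not overlap, as was so for 14.6% of all genes in this direction. The log2 change was -1.07 (adjusted P = 0.999, SE 0.38). Its mRNA overlapped between the groups, at 110 to 124 CPM in Cas9 and 116 and 129 CPM in dCas9 cells. The translational efficiency difference was -0.93 (SE 0.28, adjusted P = 0.780). At 72 h its footprints overlapped, at 48.5 and 55.9 CPM against 48.9 and 49.4 CPM. MRPS5 had 26 counts in the Cas9 a library and 56 in dCas9 e.

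In the other direction the smallest P values belonged to MRPL9 in footprints and MRPL35 in translational efficiency. MRPL9 footprints were 125 and 106 CPM in Cas9 and 88.4 and 45.1 CPM in dCas9 cells (log2 change 0.71, adjusted P = 0.999, SE 0.33). MRPL35 footprints were 40.8 and 39.5 CPM in Cas9 and 26.2 and 10.52 CPM in dCas9 cells, with a translational efficiency difference of 1.06 (SE 0.42, adjusted P = 0.780). For both genes the low value came from dCas9 library e, with 30 and 7 counts.

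In mRNA the extremes at 36 h were MRPS28 (0.31, SE 0.16) and MRPS16 (-0.30, SE 0.12), both with an adjusted P of 0.999. MRPS16 was 70.0, 70.8 and 60.8 CPM in Cas9 and 76.3 and 89.2 CPM in dCas9 cells. MRPS28 was 37.6, 33.7 and 34.8 CPM against 26.9 and 30.2 CPM. Over all members, 3 had every Cas9 mRNA library above every dCas9 library and 7 had the reverse, against 8.6% and 8.29% of all genes.

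**Figure D3:**
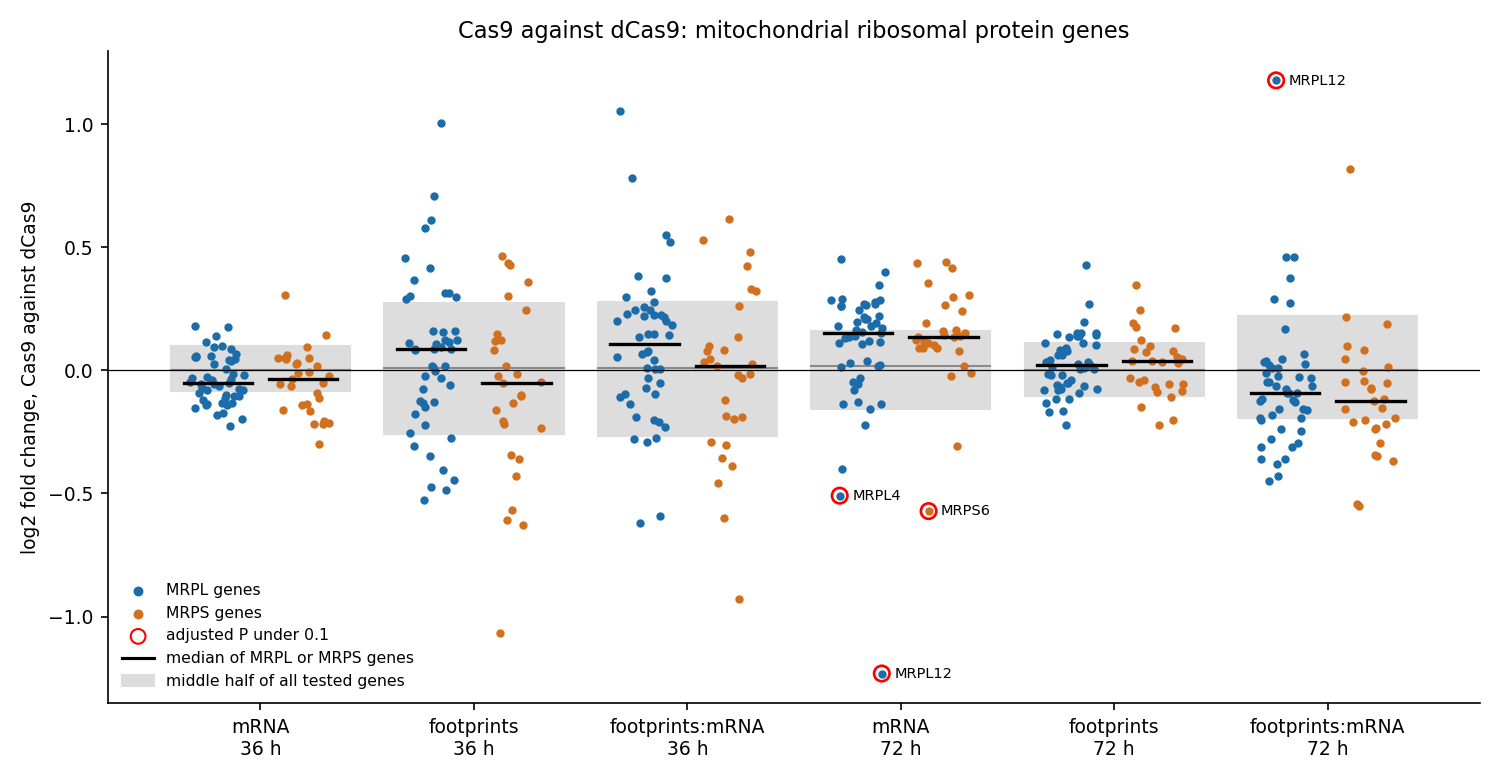
Log2 fold change of Cas9 against dCas9 for each tested member (points, by subunit) in footprints, mRNA and their ratio at 36 h and 72 h, with black lines for the median of each subunit, grey boxes for the interquartile range of all tested genes and red rings for adjusted P under 0.1. In mRNA at 72 h 62 of 78 members lie above 0, and MRPL12 is the lowest point at -1.23.

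At 72 h the mRNA of 3 members fell in Cas9 cells: MRPL12, MRPL4 and MRPS6. This was 3 of 78 members, or 3.85%, where 2.66% of all tested genes fell (2.69% called in either direction), a share near the background. DESeq2 called the same 3 members, and its share over all genes is not given here. No member rose, where 0.0275% of all genes did. MRPL12 is the protein of the large-subunit stalk, the arm that takes up translation factors. MRPL4 and MRPS6 are core proteins of the large and the small subunit, both with bacterial counterparts.

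MRPL12 mRNA was 42.2 and 61.9 CPM in Cas9 cells and 116 and 128 CPM in dCas9 cells at 72 h. The Cas9 mean was 0.426 of the dCas9 mean, and the log2 change was -1.23 (adjusted P = 0.0243, SE 0.17), lower in 4 of 4 pairs of libraries. MRPL12 mRNA at 36 h was 225 to 232 CPM in Cas9 and 242 and 250 CPM in dCas9 cells, groups that also did not overlap, with a log2 change of -0.11 (adjusted P = 0.999, SE 0.10).

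Footprints on MRPL12 were 166 and 200 CPM in Cas9 and 176 and 206 CPM in dCas9 cells at 72 h, overlapping groups with a log2 fold change of -0.05 (SE 0.09). Translational efficiency was higher in Cas9 cells, with a log2 difference of 1.18 (adjusted P = 0.0396, SE 0.22), and MRPL12 was the only one of 78 members called in this test, where 0.716% of all genes were called, 0.698% higher and 0.0184% lower. This call was lost without any single 72 h footprint library (adjusted P = 0.153 to 0.383).

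MRPL12 lies at chr17:81703367-81707517 on the plus strand (GRCh38). The annotation also holds ENSG00000262660, on the same strand at chr17:81703371-81720539, whose span covers nearly all of MRPL12 and most of SLC25A10, a mitochondrial dicarboxylate carrier. Its mRNA counts at 72 h were 3162 and 3539 in Cas9 and 5519 and 6905 in dCas9 cells, above those of MRPL12 itself (1449, 2020, 4005 and 5442) in every library. SLC25A10 had 2569 and 2310 counts in Cas9 and 2537 and 2585 in dCas9 cells. Whether reads of the shared exons were counted for both genes is not given in the sources used here.

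MRPL4 mRNA was 68.8 and 72.7 CPM in Cas9 and 108 and 93.6 CPM in dCas9 cells at 72 h, a log2 change of -0.51 (adjusted P = 0.0892, SE 0.13). MRPS6 mRNA was 11.2 and 12.3 CPM against 17.7 and 17.3 CPM, a log2 change of -0.57 (adjusted P = 0.0915, SE 0.15). Both lay near the threshold and were lost with DESeq2's size factors (adjusted P = 0.113 for each) and without either Cas9 library (adjusted P = 0.261 to 1.00). Their footprints overlapped between the groups. Those of MRPL4 were 184 and 201 CPM in Cas9 and 199.5 and 200.2 CPM in dCas9 cells, and those of MRPS6 were 22.6 and 29.0 CPM against 19.5 and 24.6 CPM.

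Translational efficiency differences for MRPL4 (0.46, SE 0.15, adjusted P = 0.261) and MRPS6 (0.82, SE 0.25, adjusted P = 0.226) did not pass the threshold. MRPL4 lies at chr19:10251901-10260055 and overlaps no other protein-coding gene. MRPS6 lies at chr21:34073224-34143034 and overlaps SLC5A3, a myo-inositol transporter gene, on the same strand. SLC5A3 had 914 and 930 mRNA counts in Cas9 and 1038 and 1280 in dCas9 cells at 72 h, against 386, 401, 608 and 736 for MRPS6.

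**Figure D4:**
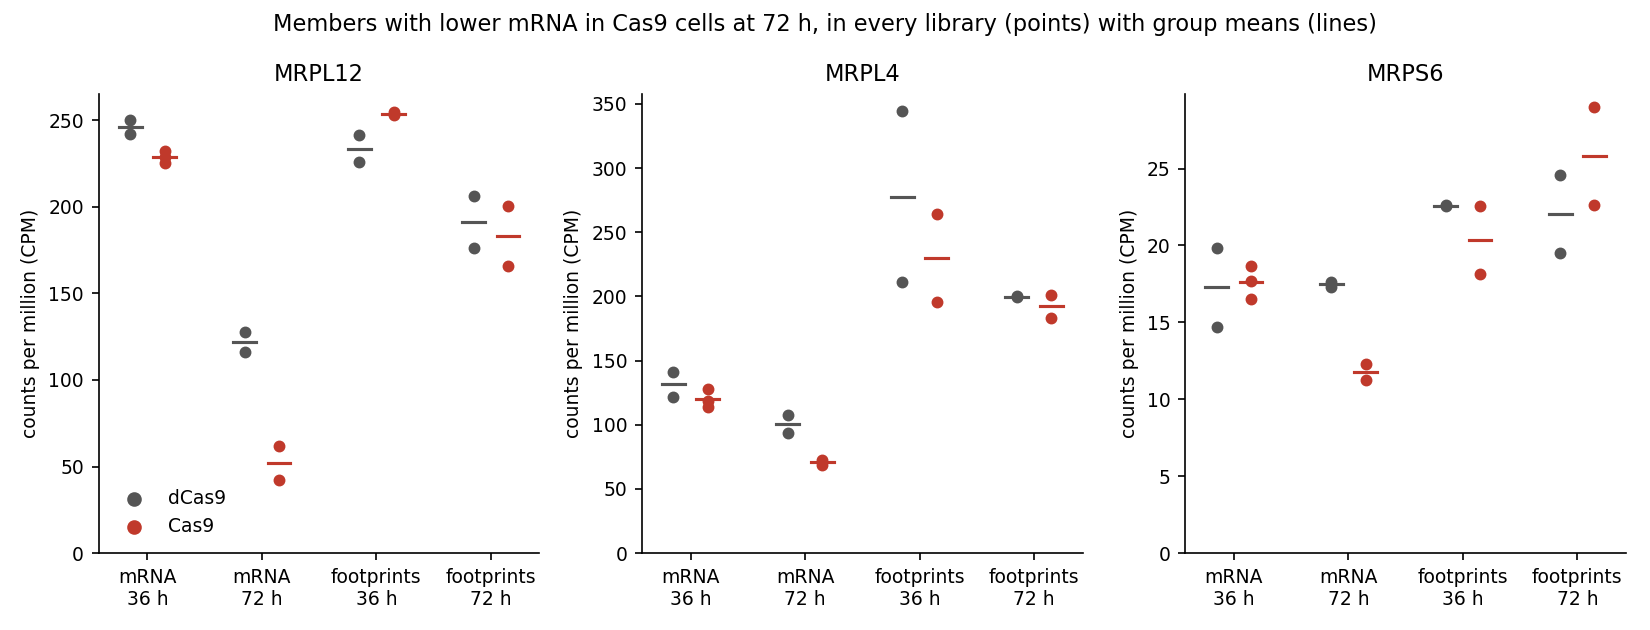
Level in CPM of MRPL12, MRPL4 and MRPS6 in every footprint and mRNA library at 36 h and 72 h; points are libraries, lines are group means and colours give the nuclease. The Cas9 mRNA points at 72 h lie below the dCas9 points for all 3 genes, whereas the footprint points at 72 h overlap.

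The start regions of the 3 genes are shown because these were the members whose mRNA fell. RefSeq (GRCh38.p14) gave a start for 69 of the 78 members, with 85 windows of 250 bases before the start. The windows were searched on both strands for 5 short motifs: the NRF1 motif (NRF1 regulates nuclear genes for mitochondria), CCGGAAG (the ETS family, which includes GABP), AAGATGGC (YY1), GGGCGG (SP1) and CCAAT. Capitals mark a match on either strand, which was SP1 or CCAAT in these windows. All 4 lie on the plus strand. The MRPS6 window ends at 34073577 and the GENCODE annotation starts SLC5A3 at 34073578, so the window also directly precedes SLC5A3. It lies inside the longer MRPS6 span given above.
MRPL12 chr17:81703117-81703366: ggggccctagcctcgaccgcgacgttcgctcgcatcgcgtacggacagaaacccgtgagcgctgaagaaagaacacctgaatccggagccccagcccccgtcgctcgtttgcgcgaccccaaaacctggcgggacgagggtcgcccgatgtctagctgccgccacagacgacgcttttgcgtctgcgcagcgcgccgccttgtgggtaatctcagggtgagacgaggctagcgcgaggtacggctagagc
MRPL4 first start chr19:10251701-10251950: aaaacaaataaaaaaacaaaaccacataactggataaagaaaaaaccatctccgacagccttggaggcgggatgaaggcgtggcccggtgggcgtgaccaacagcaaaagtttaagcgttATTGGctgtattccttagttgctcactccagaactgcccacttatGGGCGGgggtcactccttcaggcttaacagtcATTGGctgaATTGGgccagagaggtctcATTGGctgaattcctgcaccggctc
MRPL4 second start chr19:10251964-10252213: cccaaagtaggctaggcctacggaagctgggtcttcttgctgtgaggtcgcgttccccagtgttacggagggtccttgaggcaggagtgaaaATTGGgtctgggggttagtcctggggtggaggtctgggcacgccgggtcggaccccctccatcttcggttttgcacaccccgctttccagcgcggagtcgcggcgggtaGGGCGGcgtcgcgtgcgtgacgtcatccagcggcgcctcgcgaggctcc
MRPS6 chr21:34073328-34073577: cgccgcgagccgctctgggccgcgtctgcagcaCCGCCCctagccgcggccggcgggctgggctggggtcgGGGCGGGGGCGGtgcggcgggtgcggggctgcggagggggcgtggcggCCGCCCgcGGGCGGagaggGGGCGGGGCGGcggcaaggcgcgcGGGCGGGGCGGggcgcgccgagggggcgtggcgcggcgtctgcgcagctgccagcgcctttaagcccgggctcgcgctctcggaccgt

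The window of MRPL12 held none of the 5 motifs. MRPS6 held 9 SP1 matches, some of which overlap each other, and the windows of MRPL4 held 1 SP1 match each with 4 and 1 CCAAT matches. Over all windows of members, 31.8% held the ETS motif, against 8.52% of all 35114 promoter windows of the same length. For NRF1 the shares were 11.8% and 5.07%, for YY1 8.24% and 1.36%, for SP1 55.3% and 42.6%, and for CCAAT 30.6% and 32.0%. The cytosolic ribosomal protein windows held the ETS motif in 29.3%, NRF1 in 9.76% and YY1 in 2.44%. A match describes the letters only.

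Most of the other members lay above 0. In mRNA at 72 h, 62 of 78 members had a positive log2 fold change, where 53.1% of all tested genes did, and the median was 0.14 against 0.02. MRPL genes (37 of 49 above 0, median 0.15) and MRPS genes (25 of 29, median 0.14) had like values. Every Cas9 library lay above every dCas9 library for 45 members and below for 9, against 24.4% and 25.2% of all genes. None of these positive values passed the threshold. MRPL33 had the highest, at 0.45 (adjusted P = 0.260, SE 0.17), with 32.0 and 31.4 CPM in Cas9 and 19.0 and 27.2 CPM in dCas9 cells.

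The count of calls depended on single libraries. Without dCas9 mRNA library b the median of the members was 0.08, and 20 members were called, 16 higher and 4 lower, where 15.8% and 10.1% of all genes were (26% called). Without dCas9 library a the median was 0.19 and 5 members were called, 1 higher and 4 lower, of 504 genes called in all. Without Cas9 library a or b only MRPL12 was called, with 5 and 271 genes called in all. The mRNA call of MRPL12 at 72 h held in every alternative that was run.

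The mRNA change at 72 h also moved with base composition. Over all 10856 tested genes with a coding sequence, the log2 fold change fell with coding GC content (r = -0.36), and over the 78 members r was -0.45. At 36 h the values were -0.23 and -0.02. Of the 26 members with the lowest GC content (38.4% to 47.8%), 25 lay above 0 with a median of 0.26, against 0.14 for all genes in that range. In the middle band 22 of 26 members lay above 0 (median 0.14 against -0.03), and in the highest band, from 56.3% to 68.1%, 15 of 26 did (median 0.06 against -0.07).

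With a correction for GC content in the fit, 27 members were called, 22 higher and 5 lower, beside 0 higher and 3 lower without it. In that fit 21.4% of all genes were called, 6.87% higher and 14.5% lower. The 5 lower members were MRPL12, MRPL4, MRPS6, MRPL22 and MRPS2. The coding GC content of MRPL12 was 60.8%, that of MRPL4 65.2% and that of MRPS6 48.8%. The part of base composition in the change was not tested.

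**Figure D5:**
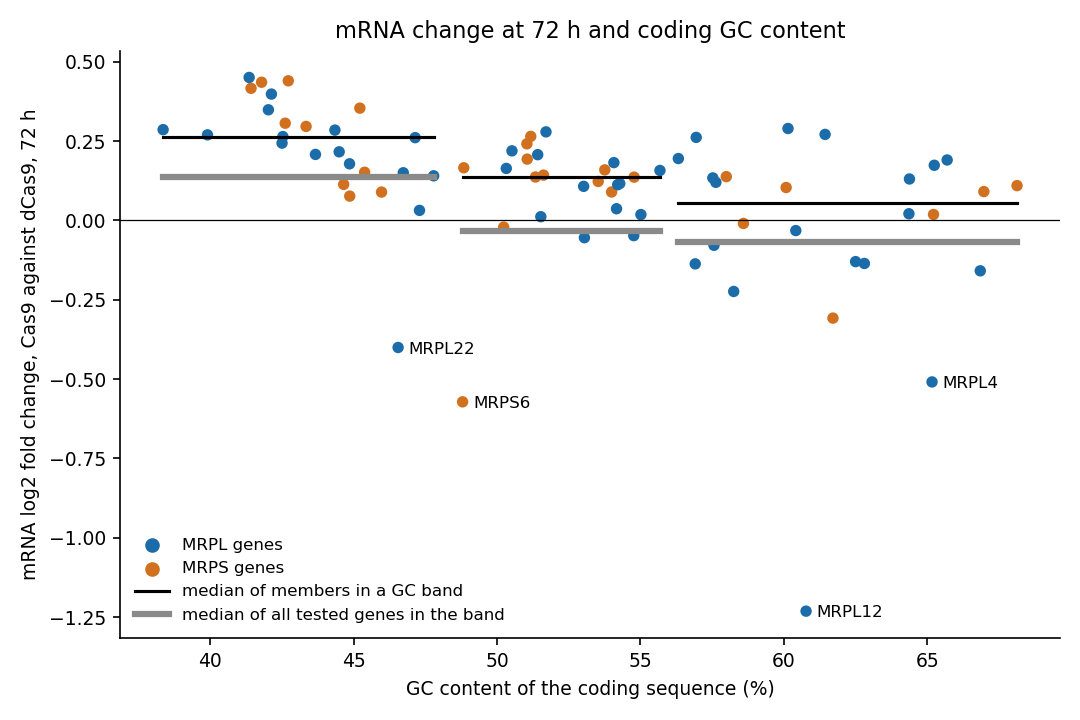
Log2 fold change of mRNA in Cas9 against dCas9 cells at 72 h against the GC content of the coding sequence in percent, with a point for each member by subunit, black lines for the members' median in each of 3 GC bands and grey lines for the median of all tested genes. The members' medians are 0.26, 0.14 and 0.06 from the lowest to the highest band, and MRPL12 lies lowest at -1.23.

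In footprints at 72 h no member passed the threshold, where 0.0367% of all genes did, 0.0275% higher and 0.00918% lower. At an unadjusted P under 0.05 there were 2 members. DESeq2 called 0 members, and its share over all genes is not given here. The median was 0.03, and 46 of 78 members lay above 0. MRPS25 had the smallest P among the positive values, with 41.2 and 43.4 CPM in Cas9 and 34.1 and 32.7 CPM in dCas9 cells (log2 change 0.35, SE 0.14, adjusted P = 1.00). MRPL43 had it among the negative values, with 71.4 and 83.1 CPM against 86.2 and 95.1 CPM (-0.22, SE 0.11, adjusted P = 1.00). The groups did not overlap for 14 members with Cas9 above and 8 with Cas9 below, against 15.8% and 15.9% of all genes.

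Translational efficiency of the members lay mostly below 0 at 72 h, with a median of -0.09 and 56 of 78 members negative. Over all tested genes the median was 0.001 and 50.1% lay above 0. The shift was not particular to the members: 63 of 82 cytosolic ribosomal proteins (median -0.15) and 15 of 16 mitochondrial translation factors (median -0.14) were also negative. All 5 tested genes of mitochondrial DNA lay above 0. The median ratio of footprints to mRNA was 0.14 and 0.10 in the 2 Cas9 libraries and 0.24 and 0.29 in the 2 dCas9 libraries. Without dCas9 mRNA library b the median translational efficiency difference was 0.02, and 41 members lay above 0.

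The change between the times was tested directly. In mRNA the Cas9 effect on MRPL12 was lower at 72 h than at 36 h, with a log2 difference of -1.14 (adjusted P = 0.0309, SE 0.19), and it was the only one of 77 members called, where 0.613% of all genes were called lower. The call was lost without Cas9 b, Cas9 c or dCas9 e of 36 h or Cas9 a of 72 h (adjusted P = 0.103, 0.119, 0.224 and 0.188). The median of the members was 0.18, and 61 of 77 lay above 0, against 49.1% of all genes. In footprints no member was called (0% of all genes, 3 members at an unadjusted P under 0.05, 0 by DESeq2). MRPS5 was at 1.10 (SE 0.34, adjusted P = 0.999) and MRPS2 at -0.45 (SE 0.17, adjusted P = 0.999). Guide preparation, aligner and annotation differed between the times as well and cannot be told apart from time.

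Members with particular roles are set beside these values. The partners of MRPL12 at the stalk were not called in mRNA at 72 h. MRPL10, which anchors the stalk, was at -0.08 (SE 0.14), and MRPL11, at its base, was at 0.26 (SE 0.13), with adjusted P values of 0.803 and 0.365. MRPL11 had fewer footprints for its mRNA at 72 h (-0.66, SE 0.13, adjusted P = 0.00038), whereas MRPL10 had more (0.31, SE 0.14, adjusted P = 0.0621).

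MRPL58, a peptide release factor built into the large subunit, was at 0.11 (SE 0.13) in mRNA at 72 h and had a log2 ratio of 0.01 (SE 0.13). MRPS12, the decoding-centre protein, had a log2 ratio of 1.03 (SE 0.23) at 36 h and 0.74 (SE 0.16) at 72 h, both past the threshold, and a Cas9 mRNA effect of 0.02 (SE 0.14). MRPL36 had a ratio of 1.11 (SE 0.18) at 36 h and 0.77 (SE 0.13) at 72 h. MRPS30 had 0.97 (SE 0.17) and 0.54 (SE 0.12).

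The paralogs MRPS18A, MRPS18B and MRPS18C occupy different sites of the ribosome. Their Cas9 mRNA effects at 72 h were 0.14 (SE 0.14), 0.14 (SE 0.12) and 0.44 (SE 0.15), none past the threshold (adjusted P = 0.639, 0.602 and 0.226). In mRNA at 36 h MRPS18C was at -0.21 (SE 0.14, adjusted P = 0.999). MRPS18B had more footprints for its mRNA at both times (0.59, SE 0.26, at 36 h and 0.58, SE 0.11, at 72 h), whereas MRPS18A and MRPS18C did not pass that test.

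Other genes of mitochondrial translation gave no call in mRNA or footprints at either time. Of the 5 mitochondrial ribosomal proteins with other symbols, 0 were called and 4 lay above 0 in mRNA at 72 h (median 0.07). In the ratio at 72 h GADD45GIP1 (0.89, SE 0.10) and AURKAIP1 (0.75, SE 0.13) were high, whereas DAP3 (-0.42, SE 0.11) and PTCD3 (-0.33, SE 0.12) were low. The 16 mitochondrial translation factors lay above 0 in mRNA at 72 h without exception (median 0.14, 0 called). Their ratio ran from 0.68 for SLIRP, an RNA stability factor, and 0.44 for TUFM, the elongation factor, to -1.98 for MTIF2 and -2.13 for MTIF3, the initiation factors.

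The 27 assembly and rRNA modification factors had a median of 0.11 in mRNA at 72 h, with 18 above 0 and 0 called. MPV17L2 (1.74) and TRUB2 (0.67) had high ratios at 72 h, and NGRN (-1.10) and RBFA (-0.63) low ones. None of these 3 lists held a gene called in translational efficiency at 36 or 72 h.

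Of the 13 proteins encoded by mitochondrial DNA, the products of this ribosome, 13 were tested at 36 h and 5 at 72 h. At 36 h 0 were called, and 11 of the 13 lay below 0 in footprints (median -0.25). At 72 h footprints rose for 3 of the 5, where 0.0275% of all genes rose, among them MT-ATP6 (0.49, SE 0.08, adjusted P = 0.00271) and MT-ND5 (0.41, SE 0.07, adjusted P = 0.00271). The mRNA of MT-CO2 (-0.95, SE 0.15, adjusted P = 0.0243) and MT-ATP6 (-0.76, SE 0.19, adjusted P = 0.0824) fell, against 2.66% of all genes. Translational efficiency rose for both (1.29, SE 0.17, and 1.25, SE 0.23), against 0.698% of all genes. Footprints of these genes come from the mitochondrial ribosome itself.

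Of the 82 cytosolic ribosomal proteins tested at 72 h, 66 lay above 0 in mRNA (median 0.19), against 53.1% of all genes. RPL9 rose (0.40, SE 0.10, adjusted P = 0.0871) and 3 fell, where 0.0275% of all genes rose and 2.66% fell, so the share that fell was near the background. RPS16 fell by 1.96 on the log2 scale (adjusted P = 0.00177, SE 0.18), from 253 and 391 CPM in dCas9 to 83.6 and 82.2 CPM in Cas9 cells. Its footprints were 756 and 803 CPM in Cas9 and 816 and 843 CPM in dCas9 cells. At 36 h 0 cytosolic ribosomal proteins were called in footprints, mRNA or translational efficiency.

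Neighbouring genes limit some of these values. By the annotation 37 members overlap another protein-coding gene, 13 on the same strand and 26 on the opposite strand, and 41 overlap none. The mRNA library kit keeps strand, but use of strand in the counting is not given in the sources used here. For 8 members, MRPL4, MRPL10, MRPL22, MRPL33, MRPL34, MRPL43, MRPL52 and MRPL55, a different transcript was kept at 72 h than at 36 h. All levels are relative to the library total, so a change in cell number or in total RNA per cell would not show in them.

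Calls that appeared when 1 library was left out, or with another design, are given with the share of all genes called there. Without dCas9 mRNA library d of 36 h, MRPS18C and MRPL40 were called lower, where 2.42% of all genes were called, 1.69% higher and 0.732% lower. Without dCas9 footprint library d of 36 h, MRPL35 and MRPL9 were called higher and MRPS5 lower in translational efficiency, where 5.26% of all genes were called, 3.25% higher and 2.01% lower. With a block for the replicate letter, 2 members were called higher and 3 lower in mRNA at 72 h, where 6.48% of all genes were called, 1.18% higher and 5.3% lower.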

How the data were processed

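Ribosome footprints and mRNA were sequenced from HEK293 cells, and the deposited files hold raw counts per transcript, which the authors made with fp-count over GENCODE transcripts of GRCh38. Per the study's methods, alignment used hisat2 at 36 h and tophat at 72 h; the submitters' processing notes name HISAT2 2.1.0. Transcripts were matched to GENCODE genes; those without a match held 3.74% of counts at 36 h and 4.22% at 72 h and were left out. The transcript with the highest summed count was kept per gene and time.

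Cas9 and dCas9 libraries were compared with edgeR 4.0.16 (R 4.3.3): TMM scaling, quasi-likelihood tests, Benjamini-Hochberg adjustment over all tested genes and a false discovery rate of 0.1. Footprints and mRNA were fitted separately, and translational efficiency in a joint fit. Genes needed a mean of 20 counts in footprint and in mRNA libraries. Single-library log2 densities used a prior count of 2. DESeq2 1.42.0 was an alternative. The shares of all genes called are edgeR's throughout, and those of DESeq2 are not given. Replicates are separate plates by the methods, and P values of the separate footprint and mRNA fits measure the spread between them. The study divided lysates between the 2 library types, and the joint fits treated all libraries as independent. At 36 h, differences between libraries with shared letters correlated between footprints and mRNA by 0.05 in Cas9 and 0.01 in dCas9 cells. The scripts were tested on simulated data. Members and gene lists were chosen with earlier results of these data known. Named members were those past the threshold (otherwise the smallest P in each direction), the highest and lowest densities and ratios, and members with particular roles.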

Additional observations from a re-analysis of the deposited data

Results flagged for a closer look

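The Cas9 effect on MRPL12 mRNA differed between the time points by -1.14 on the log2 scale (72 h minus 36 h, edgeR interaction contrast, SE 0.19, adjusted P = 0.0309). Leaving out 1 library at a time, the adjusted P passed 0.1 without Cas9 b (0.103), Cas9 c (0.119) or dCas9 e (0.224) of 36 h and without Cas9 a of 72 h (0.188, difference -0.87), and the direction held throughout.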

How the results depend on the processing

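The alternatives were followed for 31 values of named members, none of which reversed: 377 of the recomputed values kept their side of the threshold, 14 no longer passed and 6 newly passed. Members outside these values enter the counts that follow. For mRNA at 72 h, 3 members were called, against 1 with DESeq2's size factors in edgeR, 27 with a GC correction and 1 to 20 when leaving out 1 library, the highest without dCas9 b. For translational efficiency at 72 h, 1 member was called, against 7 with a GC correction, where 0.716% and 5.42% of all tested genes were called. The call of that member, MRPL12, was lost on leaving out any single footprint library. At 36 h, leaving out 1 library gave 0 to 2 members in mRNA and 0 to 3 in translational efficiency, the highest without dCas9 d, and 18 to 35 for footprints against mRNA, the lowest without dCas9 mRNA e. Footprints at 72 h gave 0 to 1, with MRPL23 called without Cas9 f. The difference between the times in mRNA gave 2 members with DESeq2 and 0 to 4 when leaving out 1 library. Where no share of all genes called is given for a setting, its count of members is not read as a result about them. By structure, the large minus small subunit difference in the median ratio was 0.0731 in Cas9 cells at 36 h and 0.0575 at 72 h, against -0.0751 and 0.0645 by symbol. Leaving out 1 library also leaves fewer libraries in the fit, and the cause of these changes was not tested.

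Replicate letters were shared by Cas9 and dCas9 libraries at 72 h. Deviations of libraries with the same letter correlated by 0.01 in footprints and -0.14 in mRNA, so no large shared deviation was seen. With 2 libraries per group, and labels that do not explain the letters, this cannot decide whether the plates were paired. With the replicate block 5 members were called in mRNA (706 genes against 293) and 1 in translational efficiency, where 6.48% and 0.808% of all genes were called. With the block and a GC correction the counts were 36 and 7, where 28.4% and 6.96% of all genes were called. With the letters crossed, an alternative chosen after seeing the data, the block called 8 members in mRNA, a count not set against all genes here. Groups of 2 libraries, and 689636 footprint counts in the shallowest library, limit what could be detected at 36 h.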
